A study of Mus musculus with 24 samples.

Results

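The semaphorin, slit and netrin families and their receptors were examined in RNA sequencing of mouse otocyst epithelium, the vesicle of cells that forms the inner ear. Members were chosen by gene name: every protein-coding gene of the Sema, Plxn, Nrp, Slit, Robo, Ntn and Unc5 families, with Dcc and Neo1. The rule found 45 genes among the 15736 in the count table: 20 semaphorins, 9 plexins, 2 neuropilins, 3 slits, 3 roundabout (Robo) receptors, 2 netrins, the 2 genes of the DCC family and 4 Unc5 receptors. Ntn3, Ntn5 and Robo3 belong to the same families and were not analysed here. Genes that only share the letters (the netrin-G and Slitrk genes, Unc50 and Unc5cl) were left out. No measured value entered the choice by name, but the set was put together with earlier results of these data known.

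Semaphorins are secreted or membrane-bound ligands that act through plexin receptors, and most of the secreted class 3 semaphorins need a neuropilin as co-receptor. Slits are secreted ligands that bind Robo receptors and mostly repel growing axons and migrating cells. Netrins bind receptors of the DCC family (Dcc and neogenin, the product of Neo1), usually with attraction, and receptors of the UNC5 family, usually with repulsion. In the inner ear, Ntn1 is known for its part in forming the semicircular canals, and semaphorin and slit signals for guiding and placing the neurons of the ear's ganglion.

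Control embryos (con) had the genotype Rosa26rtTA/+, that is, 1 copy of the reverse tetracycline transactivator at the Rosa26 locus. Experimental embryos (R2b) were Rosa26rtTA/+;Tg(tetO-s(dn)Fgfr2b)/+ and so also carried a doxycycline-driven transgene for s(dn)FGFR2b, a soluble and dominant-negative receptor that binds FGF ligands and keeps them from the cells' own receptors. All embryos of both genotypes were exposed to doxycycline through the mother, who was injected with 1.5 mg/kg and then fed chow with 200 mg/kg. Exposure began at embryonic stage E9.75 and lasted 12 hours (the 12-hour exposure, E9.75+12h in the figures), began at E9.25 and lasted 24 hours (the early 24-hour exposure, E9.25+24h), or began at E10.25 and lasted 24 hours (the late 24-hour exposure, E10.25+24h). The 12-hour and the early 24-hour exposures thus ended at the same stage, E10.25, and the late one at E11.25. Rosa26 is active in most cell types and the product is secreted, so the transgene is not limited to the otocyst. Each pregnant female gave 1 pool of con and 1 pool of R2b otocyst epithelia. The libraries compared came from 3 litters of the 12-hour exposure and from 4 of each of the other exposures. Litters are numbered within an exposure and are different animals in different exposures.

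The 22 libraries held 18.7 to 28.2 M counts. Levels are given as CPM (the share of a library scaled to a fixed total). In the first 2 exposures the labels matched the transgene: the R2b libraries held 19414 to 76096 and 26082 to 42515 counts of Ighg1, an immunoglobulin heavy chain gene whose reads followed the transgene, against 19 to 36 and 1 to 5 in con. In the late 24-hour exposure they did not. The libraries labelled con held 15754, 28, 5106 and 16 counts of Ighg1 in litters 1 to 4, and those labelled R2b held 1504, 25248, 23658 and 19155. Litter 1 thus ran against its labels, and litters 1 and 3 had transgene reads in both pools. Every direction in the late 24-hour exposure is therefore that of libraries as labelled. All 15 markers of otic epithelium were in the table, and their summed level was 2622 to 8783 CPM. In the 12-hour exposure the sums were 4327 to 4660 CPM in con and 4892 to 5830 CPM in R2b. They were 2622 to 4182 and 3708 to 5815 CPM in the early 24-hour exposure. In the late one, as labelled, they were 5649 to 8783 and 6427 to 8201 CPM. Since tissue was pooled, fewer cells of a type and less RNA per cell cannot be told apart in any value below.

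The regulatory sequence just upstream of 3 members that were higher in R2b (Neo1, Sema6b and Slit2, given below) is shown to make the promoters of these genes concrete; they were picked after values were seen, from those called members whose upstream bases hold little or no annotated exon. Sequences are from RefSeq on GRCm38.p6, read 5′ to 3′ on the gene's strand up to the start of the transcript. Capitals mark a GC box, GGGCGG on either strand, the binding motif of Sp factors. They lie at chr9:59036442-59036691 (minus strand), chr17:56140344-56140593 (minus strand) and chr5:47982905-47983137 (plus strand).
Neo1: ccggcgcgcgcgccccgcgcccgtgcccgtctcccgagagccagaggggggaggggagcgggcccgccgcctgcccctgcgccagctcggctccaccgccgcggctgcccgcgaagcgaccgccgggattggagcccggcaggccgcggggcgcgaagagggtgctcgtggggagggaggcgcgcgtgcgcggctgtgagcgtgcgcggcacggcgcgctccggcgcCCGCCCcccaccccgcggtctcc
Sema6b: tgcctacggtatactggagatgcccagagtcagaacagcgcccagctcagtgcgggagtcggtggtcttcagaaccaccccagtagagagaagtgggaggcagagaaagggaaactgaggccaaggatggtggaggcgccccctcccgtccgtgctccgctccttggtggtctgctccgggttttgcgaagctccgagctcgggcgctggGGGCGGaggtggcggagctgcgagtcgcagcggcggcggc
Slit2: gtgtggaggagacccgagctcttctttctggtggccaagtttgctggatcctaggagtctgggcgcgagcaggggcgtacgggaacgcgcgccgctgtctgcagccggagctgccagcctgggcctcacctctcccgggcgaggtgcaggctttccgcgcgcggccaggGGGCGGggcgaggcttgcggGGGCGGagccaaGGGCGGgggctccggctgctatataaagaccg

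These stretches hold 1, 1 and 3 GC boxes, and their GC content is 83.2%, 66.0% and 70.4%. The RefSeq table had a promoter window (250 bases before to 50 after a transcript start) for 36 of the 45 members, 49 windows in all. A GC box was in 33 of the 49 windows (67.3%) and in 35.7% of all 32851 windows of that length. The core motif of ETS factors, GGAAGT on either strand, was in 9 of 49 member windows (18.4%) and in 23.8% of all windows. The longer form CCGGAAGT, which contains the core, was in 0 of 49 and in 3.89% of all, and the AP-1 motif TGACTCA was in 2 of 49 (Sema4c and Sema6b; 4.08%) and in 5.20% of all. The members with the ETS core were Sema3a, Sema3e, Sema4a, Sema4b, Sema4d, Sema6b, Sema6d and Unc5c. None of the 3 stretches shown holds the ETS core. A match describes letters in these windows and says nothing of binding.

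Receptors led the guidance genes in abundance in the early 24-hour exposure. Per kilobase of annotated exon, the highest in con in the early 24-hour exposure were the B-class plexins Plxnb1 (39.0 ± 4.21 CPM per kb, SD, n = 4) and Plxnb2 (37.6 ± 1.44), neogenin's gene Neo1 (34.8 ± 0.881) and the A-class plexin Plxna1 (28.8 ± 1.70). Plxnb1 and Plxnb2 lay within their spread of each other, as did Plxna1, the transmembrane semaphorin Sema4c (27.4 ± 1.74) and the netrin receptor Unc5b (26.2 ± 4.82). The most abundant semaphorins were Sema4c and Sema6a (22.6 ± 1.73). In the 12-hour exposure Sema6a itself headed the order in con (38.2 ± 1.42, n = 3), and in the late exposure Plxnb2 did in the libraries labelled con (52.2 ± 3.52, n = 4). Robo1 (15.5 ± 0.589) and Slit3 (14.2 ± 0.951) led the Robo receptors and the slits, and Nrp2 (8.68 ± 2.65) was above Nrp1 (1.42 ± 1.62). At the other end stood Plxnb3 (0.0647 ± 0.0239), Unc5a (0.113 ± 0.0827), Dcc (0.218 ± 0.0219), Unc5d (0.222 ± 0.0519) and the endothelial Robo receptor Robo4 (0.456 ± 0.678). The netrin ligand Ntn1 stood at 2.35 ± 0.805 CPM per kb (SD, n = 3) in con in the 12-hour exposure, 2.37 ± 0.819 (n = 4) in the early 24-hour exposure and 17.1 ± 4.83 (n = 4) in the libraries labelled con in the late 24-hour exposure. The 12-hour and the early 24-hour exposure ended at the same stage and carry different series of library numbers in the labels. The late exposure differed from both in stage and in its number series, which cannot be told apart there, and no test across exposures was made of these levels.

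**Figure D1:**
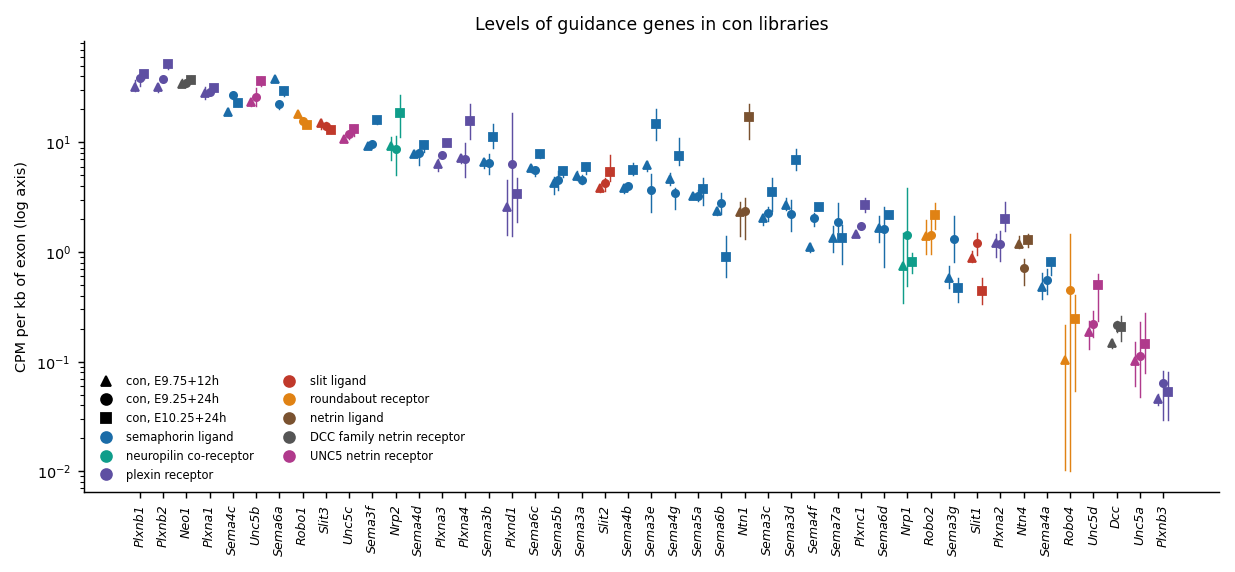
Level of each of the 45 guidance genes in con libraries, in CPM per kb of exon on a log axis; symbols are means of 3 litters (E9.75+12h) or 4 litters (E9.25+24h, and labelled con at E10.25+24h), bars run from the lowest to the highest library, and colours give the role. Plxnb1, Plxnb2, Neo1 and Plxna1 head the order at E9.25+24h and Plxnb3 ends it; Ntn1 was at 2.37 CPM per kb at E9.25+24h and 17.1 at E10.25+24h.

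The first question was which guidance genes differed between R2b and con in each exposure. A gene is said to be called, or to have risen or fallen in R2b, when edgeR's quasi-likelihood test gave a Benjamini-Hochberg adjusted p (FDR) under 0.05 over all genes tested. After the 12-hour exposure, 9 members rose and 1 fell of 43 tested (23.3%); 20.0 percent of all genes were called. In the early 24-hour exposure, 7 rose and 3 fell of 44 tested (22.7%), against 15.6 percent of all genes. In the late 24-hour exposure, 0 of 44 were called and 0 of 15203 genes were; 0 members and 175 genes (1.15 percent) had an unadjusted p under 0.05. That count was 19 members and 35.0 percent of genes in the 12-hour exposure, and 17 members and 32.2 percent in the early 24-hour exposure. The members' shares were thus near the background. The log2 fold changes of the 33 members not called in the 12-hour exposure ran from -0.64 to 0.92, and those of the 34 in the early 24-hour exposure from -0.82 to 0.67. The balance of direction differed more from it in the 12-hour exposure: the median log2 fold change was 0.26 over the members and 0.01 over all genes, and 10.20 percent of all genes were called higher and 9.78 percent lower. After the early 24-hour exposure 9.09 percent of all genes were called higher and 6.50 percent lower, the medians were 0.07 and -0.01, and the medians of the absolute log2 fold change were 0.29 and 0.16. With the litter as a block, 22 of the 44 members (50.0%) were called in the early 24-hour exposure, 14 higher and 8 lower, and 40.6 percent of all genes were, 20.5 percent higher and 20.1 percent lower. In the 12-hour exposure the block left 7 higher and 0 lower, against 11.9 percent of all genes (5.79 higher, 6.13 lower). DESeq2 called 11 members in the 12-hour exposure and 16 in the early 24-hour exposure, against 24.3 and 21.1 percent of all genes. Without litter 1 only 1 member was called in each of these 2 exposures, Sema4g in the 12-hour exposure and Unc5c in the early 24-hour exposure, and 2.92 and 2.15 percent of all genes were called.

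**Figure D2:**
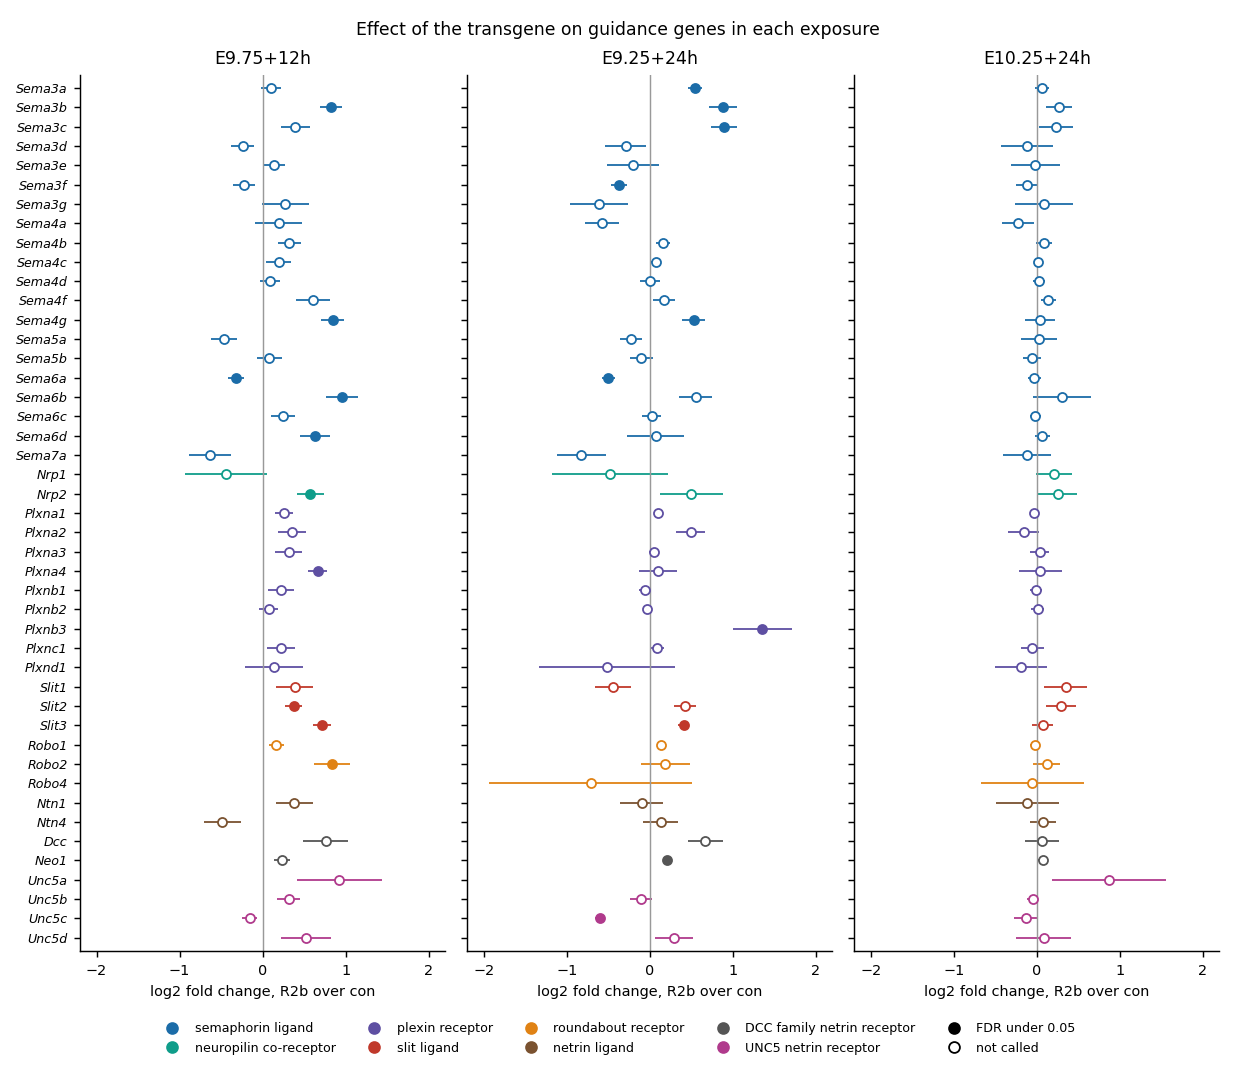
Log2 fold change of R2b over con for each guidance gene in the 3 exposures (as labelled at E10.25+24h), with bars of 1 standard error; filled points have an FDR under 0.05 and colours give the role. Filled points number 10 in each of the first 2 exposures, and none is filled at E10.25+24h; genes with no point were not tested in that exposure.

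Among the semaphorins, 4 of 20 rose and 1 fell in the 12-hour exposure, and 4 rose and 2 fell in the early 24-hour exposure. Sema3b and Sema4g rose in both exposures. Sema3b, a secreted semaphorin (chr9:107597674-107609229, GRCm38), was at 33.3, 28.1 and 33.7 CPM in con litters 1 to 3 in the 12-hour exposure and at 60.9, 46.2 and 61.4 CPM in the R2b pools of the same litters. Under the early 24-hour exposure its con levels were 36.0, 37.8, 24.4 and 26.1 CPM and its R2b levels 61.3, 68.2, 54.5 and 45.6 CPM. In both exposures every R2b library was above every con library, with log2 fold changes of 0.82 ± 0.14 (SE, FDR = 0.00249) and 0.88 ± 0.17 (FDR = 0.0125) in edgeR. Leaving out litter 1 gave an FDR of 0.0596 and 0.0775, and leaving out litter 2 in the early 24-hour exposure gave 0.0520.

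Sema4g, a transmembrane semaphorin (chr19:44989101-45003397), was at 46.0, 39.8 and 35.7 CPM in con and 73.4, 61.0 and 84.3 CPM in R2b in the 12-hour exposure. In the early 24-hour exposure it was at 33.2, 31.8, 21.6 and 32.3 CPM in con and 43.5, 46.9, 38.6 and 42.4 CPM in R2b. The groups did not overlap in either exposure. The log2 fold changes were 0.85 ± 0.14 (FDR = 0.00245) and 0.53 ± 0.13 (FDR = 0.0314). The second call was lost with some litters left out: the FDR was 0.119 without litter 1, 0.141 without litter 2 and 0.0522 without litter 4. Single libraries left out gave 0.0855 (R2b of litter 1), 0.0526 (con of litter 2) and 0.0928 (R2b of litter 2). R2b was higher in 4 of 4 litters there, and with the litter as a block the FDR was 0.000317.

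Sema3a and Sema3c rose in the early 24-hour exposure. Sema3a encodes the secreted ligand best known for collapsing growth cones through a neuropilin and A-class plexins. It was at 65.7, 59.5, 70.2 and 57.5 CPM in con and 92.8, 90.5, 104 and 81.5 CPM in R2b, a log2 fold change of 0.54 ± 0.09 (FDR = 0.00619). After the 12-hour exposure it was at 62.9, 67.9 and 75.6 CPM against 66.9, 83.2 and 71.2 CPM, groups that overlapped (0.10 ± 0.12, FDR = 0.569). Sema3c, secreted as well, was at 13.9, 13.7, 18.3 and 18.5 CPM in con and 27.7, 27.2, 39.0 and 26.1 CPM in R2b in the early 24-hour exposure (0.90 ± 0.16, FDR = 0.00960). In the 12-hour exposure it was at 12.6, 16.1 and 15.7 CPM against 15.7, 23.2 and 19.3 CPM (0.39 ± 0.17, FDR = 0.129). R2b was higher in 4 of 4 litters in the early 24-hour exposure for both genes. Both calls were lost without litter 1 (FDR = 0.0621 for Sema3a and 0.0769 for Sema3c) and without litter 2 (0.0514 and 0.0595).

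Those genes sit in a cluster of class 3 semaphorins on chromosome 5, where Sema3d (chr5:12383385-12588948) and Sema3a (chr5:13125414-13602565) are followed by Sema3e (chr5:14025276-14256689) and Sema3c (chr5:17574281-17730268). Sema3d and Sema3e were not called: in the early 24-hour exposure their log2 fold changes were -0.29 ± 0.25 (FDR = 0.459) and -0.20 ± 0.31 (FDR = 0.698). Sema3b likewise has a class 3 neighbour, Sema3f (chr9:107681500-107710475), and the pair moved in opposite directions in the early 24-hour exposure. Sema3f, whose product prefers Nrp2 as co-receptor, was at 52.5, 53.5, 47.9 and 48.2 CPM in con and 40.1, 38.2, 33.0 and 44.9 CPM in R2b. It fell by 0.37 on the log2 scale (SE 0.09, FDR = 0.0286), with every R2b library below every con library. This call was lost without any one of litters 1, 2 and 3 (FDR = 0.146, 0.186 and 0.0581) and without single libraries of litters 1 and 2 (0.0664 and 0.0794 for con, 0.0732 and 0.0848 for R2b), and was at 0.0501 when all libraries were fitted together. After the 12-hour exposure Sema3f was at 48.1, 47.0 and 50.5 CPM in con and 46.7, 33.3 and 44.7 CPM in R2b (-0.22 ± 0.13, FDR = 0.253).

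Of the 4 class 6 semaphorins, which are transmembrane ligands of A-class plexins, Sema6a fell in both exposures. It was at 332, 349 and 325 CPM in con and 248, 259 and 300.5 CPM in R2b in the 12-hour exposure. After the early 24-hour exposure it was at 212, 206, 199 and 177 CPM in con and 146, 150.4, 124 and 142 CPM in R2b. The groups were apart in both exposures, and R2b was lower in 7 of 7 litters. The log2 fold change was -0.50 ± 0.08 (FDR = 0.00491) in the early 24-hour exposure and -0.32 ± 0.10 (FDR = 0.0422) in the 12-hour exposure. With the litter block the second became an FDR of 0.0891, and it held in 8 of 19 alternatives; it was lost when any one of the 3 litters was left out (FDR = 0.312, 0.0832 and 0.0518) or any con library (0.0999, 0.141 and 0.0647) or the R2b library of litter 1 (0.176). Under the early 24-hour exposure the FDR without litter 1 was 0.0542.

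Sema6b went the other way. It was at 8.62, 10.32 and 9.22 CPM in con and 22.7, 13.7 and 18.2 CPM in R2b in the 12-hour exposure, which gave the largest log2 fold change among the members called there (0.95 ± 0.19, FDR = 0.00656; 0.142 without litter 1). In the early 24-hour exposure it was at 9.14, 8.84, 12.8 and 13.7 CPM in con and 13.3, 14.5, 22.3 and 15.0 CPM in R2b. There R2b was higher in 4 of 4 litters but the groups overlapped (0.55 ± 0.20, FDR = 0.0980), and the test with the litter as a block called it (FDR = 0.00325). Sema6d was at 16.8, 13.1 and 22.6 CPM in con and 25.9, 28.5 and 26.8 CPM in R2b in the 12-hour exposure (0.63 ± 0.18, FDR = 0.0308), and the litter block took that to 0.0549. It also passed 0.05 without litter 1 (0.206), litter 2 (0.102), the con library of litter 1 or 2 (0.103 and 0.106), or the R2b library of litter 1 or 3 (0.0793 and 0.0675), and in the fit of all libraries (0.131). After the early 24-hour exposure Sema6d was at 7.75 to 27.3 CPM in con and 11.7 to 21.4 CPM in R2b (0.07 ± 0.34, FDR = 0.915). Sema6c stood at 0.25 ± 0.14 and 0.02 ± 0.11 (FDR = 0.244 and 0.908).

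The other 12 semaphorins were called in neither exposure. Sema7a, the membrane-anchored semaphorin that signals through Plxnc1, had the lowest log2 fold changes of them, -0.64 ± 0.26 (FDR = 0.0989) and -0.82 ± 0.30 (FDR = 0.0914), and was lower in R2b in 7 of 7 litters. Its levels were 4.18, 3.33 and 5.69 CPM against 2.93, 2.62 and 2.94 CPM in the 12-hour exposure, and 5.22, 5.26, 5.04 and 9.21 CPM against 3.30, 2.92, 2.36 and 5.40 CPM in the early 24-hour exposure. Sema5a was also lower in 7 of 7 litters, with -0.47 ± 0.15 (FDR = 0.0514) and -0.23 ± 0.13 (FDR = 0.272). The litter block called both in the early 24-hour exposure (FDR = 0.00068 for Sema7a and 0.0169 for Sema5a), together with Sema3g (-0.58, FDR = 0.0150) and Sema4a (-0.56, FDR = 0.0460). Sema4c, the most abundant semaphorin per kb in that exposure, was at 115 to 132 CPM in con and 124 to 145 CPM in R2b (0.08 ± 0.06, FDR = 0.452). Sema4f was higher in R2b in 3 of 3 and 4 of 4 litters, by 0.60 ± 0.21 (FDR = 0.0613) and 0.17 ± 0.13 (FDR = 0.408) on the log2 scale. The remaining transmembrane members had smaller values: Sema4b 0.32 ± 0.14 and 0.16 ± 0.08 (FDR = 0.128 and 0.229), Sema4d 0.09 ± 0.12 and 0.01 ± 0.12 (FDR = 0.653 and 0.982), and Sema5b 0.08 ± 0.15 and -0.10 ± 0.14 (FDR = 0.742 and 0.654).

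The neuropilins and plexins, the receptors of these ligands, moved at single members. Nrp2 rose in the 12-hour exposure, from 134, 81.9 and 113 CPM in con to 155, 150.2 and 184 CPM in R2b (0.58 ± 0.16, FDR = 0.0257). The call was lost without litter 1 (0.0531) or litter 3 (0.107), without the con library of litter 2 or 3 (0.0753 and 0.0543), without the R2b library of litter 1 or 3 (0.0649 and 0.0879), and in the fit of all libraries (0.261). Under the early 24-hour exposure Nrp2 was at 113, 102, 60.3 and 135 CPM in con and 194, 179.7, 53.1 and 156 CPM in R2b. There the pools of a litter moved together, litter 3 being low in both; the test without the block gave 0.50 ± 0.37 (FDR = 0.395) and with it 0.43 (FDR = 0.0245). Nrp1 was not called in either exposure (FDR = 0.560 and 0.680).

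Plxna4, an A-class plexin, rose in the 12-hour exposure from 103, 91.2 and 108 CPM to 177, 138 and 164 CPM (0.66 ± 0.11, FDR = 0.00323; 0.0751 without litter 1 and 0.0828 in the fit of all libraries). In the early 24-hour exposure it was at 113, 139, 68.8 and 79.0 CPM in con and 106, 138, 96.2 and 87.9 CPM in R2b, groups that overlapped (0.10 ± 0.22, FDR = 0.798). Plxnb3 rose in the early 24-hour exposure, at the lowest level of any member: 0.192, 0.497, 0.531 and 0.461 CPM in con and 1.41, 1.32, 0.890 and 0.710 CPM in R2b (1.36 ± 0.36, FDR = 0.0361). Its call held in 10 of 22 alternatives and was lost without any one of litters 1, 2 and 3 (FDR = 0.159, 0.148 and 0.0749), without any con library (0.0637, 0.0620, 0.0595 and 0.0580) and without the R2b library of litter 1, 2 or 3 (0.109, 0.104 and 0.0522). Its counts were too low to be tested in the other exposures. The most abundant plexins had small log2 fold changes in the early 24-hour exposure that were not called: Plxnb1 was at -0.06 ± 0.08 (FDR = 0.646), Plxnb2 at -0.03 ± 0.05 (FDR = 0.727) and Plxna1 at 0.10 ± 0.05 (FDR = 0.211). With the block, Plxna1 (FDR = 0.0466) and Plxna2 (0.51, FDR = 0.00197) were called there. Plxna3 had 0.31 ± 0.16 and 0.05 ± 0.06 (FDR = 0.196 and 0.595), and Plxnc1, the receptor of Sema7a, 0.22 ± 0.17 and 0.09 ± 0.08 (FDR = 0.368 and 0.504), in the 12-hour and the early 24-hour exposure. An antisense gene in the table, Gm7628, overlaps exons of Plxnb1, and whether counting used strand is not given in the sources used here.

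Plxnd1, Nrp1 and Robo4, receptors found in endothelial cells, followed 1 litter in the early 24-hour exposure. In litter 4, con and R2b were at 135 and 68.9 CPM for Plxnd1, 37.6 and 18.5 CPM for Nrp1, and 7.74 and 4.03 CPM for Robo4. In the other 3 litters the ranges over both groups were 10.24 to 27.1, 4.83 to 10.1 and 0.0531 to 1.51 CPM. The summed level of 12 endothelial markers ranged from 16.6 to 308 CPM over the con libraries and from 16.2 to 142 CPM over R2b, and 0 of 11 tested were called. The highest sum of each group was that of litter 4. With the litter block 4 of the 11 were called, all lower in R2b, against 20.1 percent of all genes called lower in that fit. Their part in these values was not tested.

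Of the slits, 2 of 3 rose in the 12-hour exposure and 1 of 3 in the early 24-hour exposure, and of the Robo receptors 1 of 2 tested and 0 of 3. Slit3 (chr11:35121224-35708507) rose in both exposures. In the 12-hour exposure it was at 81.3, 94.2 and 99.7 CPM in con and 164, 134 and 154 CPM in R2b, and in the early 24-hour exposure at 87.5, 84.1, 79.5 and 93.2 CPM in con and 114, 106, 123 and 114 CPM in R2b. The groups were apart in both, and the log2 fold change was 0.72 ± 0.11 (FDR = 0.00191) and 0.41 ± 0.06 (FDR = 0.00508), with FDRs of 0.0639 and 0.0583 without litter 1. Slit2 was at 103, 89.7 and 98.1 CPM in con and 126, 114 and 137 CPM in R2b in the 12-hour exposure (0.37 ± 0.10, FDR = 0.0262), and at 119, 119.9, 91.6 and 102 CPM in con and 167, 168, 122 and 125 CPM in R2b in the early 24-hour exposure (0.43 ± 0.13, FDR = 0.0589). It was higher in R2b in 7 of 7 litters. The litter block changed both calls, to an FDR of 0.0547 in the 12-hour exposure and 3.66e-05 in the early 24-hour exposure. After the 12-hour exposure the call was also lost without litter 1 (0.163) or 3 (0.189), without any con library (0.0538, 0.109 and 0.0698), without the R2b library of litter 1 or 3 (0.0898 and 0.105), and in the fit of all libraries (0.144).

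Slit1, the least abundant slit, had log2 fold changes of 0.39 ± 0.22 (FDR = 0.236) and -0.44 ± 0.22 (FDR = 0.196); in the early 24-hour exposure it was lower in R2b in 4 of 4 litters, and the litter block called it there (FDR = 0.0148). Robo2 rose in the 12-hour exposure, from 21.4, 16.4 and 33.1 CPM to 39.0, 49.1 and 38.2 CPM (0.83 ± 0.22, FDR = 0.0205). That call was lost without litter 1 (0.162) or 2 (0.0836), without the con library of litter 1 or 2 (0.0880 and 0.0642) and without the R2b library of litter 1 (0.0521). After the early 24-hour exposure Robo2 was at 16.2 to 39.8 CPM in con and 17.8 to 35.0 CPM in R2b (0.19 ± 0.29, FDR = 0.704). Robo1, the main Robo receptor by level, was at 287, 308 and 303 CPM against 326, 338 and 342 CPM in the 12-hour exposure, and at 265, 264, 244 and 253 CPM against 280.1, 272, 289 and 283 CPM in the early 24-hour exposure. Its R2b libraries were above con in both, by 0.17 ± 0.09 and 0.13 ± 0.04 on the log2 scale (FDR = 0.190 and 0.0625), and the litter block called the second (FDR = 0.0184).

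The netrin ligands were called in neither exposure; of their receptors, Neo1 rose and Unc5c fell, both in the early 24-hour exposure. Ntn1 was at 17.9, 8.90 and 17.4 CPM in con and 19.8, 18.6 and 19.3 CPM in R2b in the 12-hour exposure (0.38 ± 0.22, FDR = 0.247), and at 8.33 to 19.5 CPM against 10.9 to 16.5 CPM in the early 24-hour exposure (-0.10 ± 0.26, FDR = 0.832). Ntn4 had -0.48 ± 0.23 (FDR = 0.155) and 0.13 ± 0.21 (FDR = 0.718). Neo1, the abundant DCC-family receptor, rose in the early 24-hour exposure from 297, 301, 301 and 315 CPM to 356, 338, 338 and 372 CPM. That was a small but even difference (0.21 ± 0.04, FDR = 0.0170), lost without litter 1 (0.126), litter 2 (0.0711) or the R2b library of litter 1 (0.0594). In the 12-hour exposure Neo1 was at 286, 288 and 328 CPM against 346, 353 and 361 CPM (0.23 ± 0.09, FDR = 0.0950). Dcc was at 1.75 to 5.79 CPM and higher in R2b in 7 of 7 litters, with 0.76 ± 0.27 (FDR = 0.0721) and 0.67 ± 0.21 (FDR = 0.0587); with the block it was called in the early 24-hour exposure (FDR = 0.00747).

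Unc5c (chr3:141465216-141834924), a repulsive netrin receptor, fell in the early 24-hour exposure. Its levels were 245, 233, 232 and 206 CPM in con and 153, 144, 157 and 149 CPM in R2b, a clear gap between narrow groups. The log2 fold change was -0.60 ± 0.06 (FDR = 0.000768), the smallest FDR of any member in any exposure, and the call held in 23 of 23 alternatives with an FDR of at most 0.0226. After the 12-hour exposure Unc5c was at 205, 202 and 216 CPM in con and 193, 195 and 172 CPM in R2b, so that R2b was lower in 3 of 3 litters (-0.15 ± 0.09, FDR = 0.251). Unc5b, the most abundant of the family, had 0.31 ± 0.14 (FDR = 0.141) and -0.10 ± 0.13 (FDR = 0.632). Unc5a and Unc5d were not called, and Unc5a was too low to be tested in the early 24-hour exposure.

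**Figure D3:**
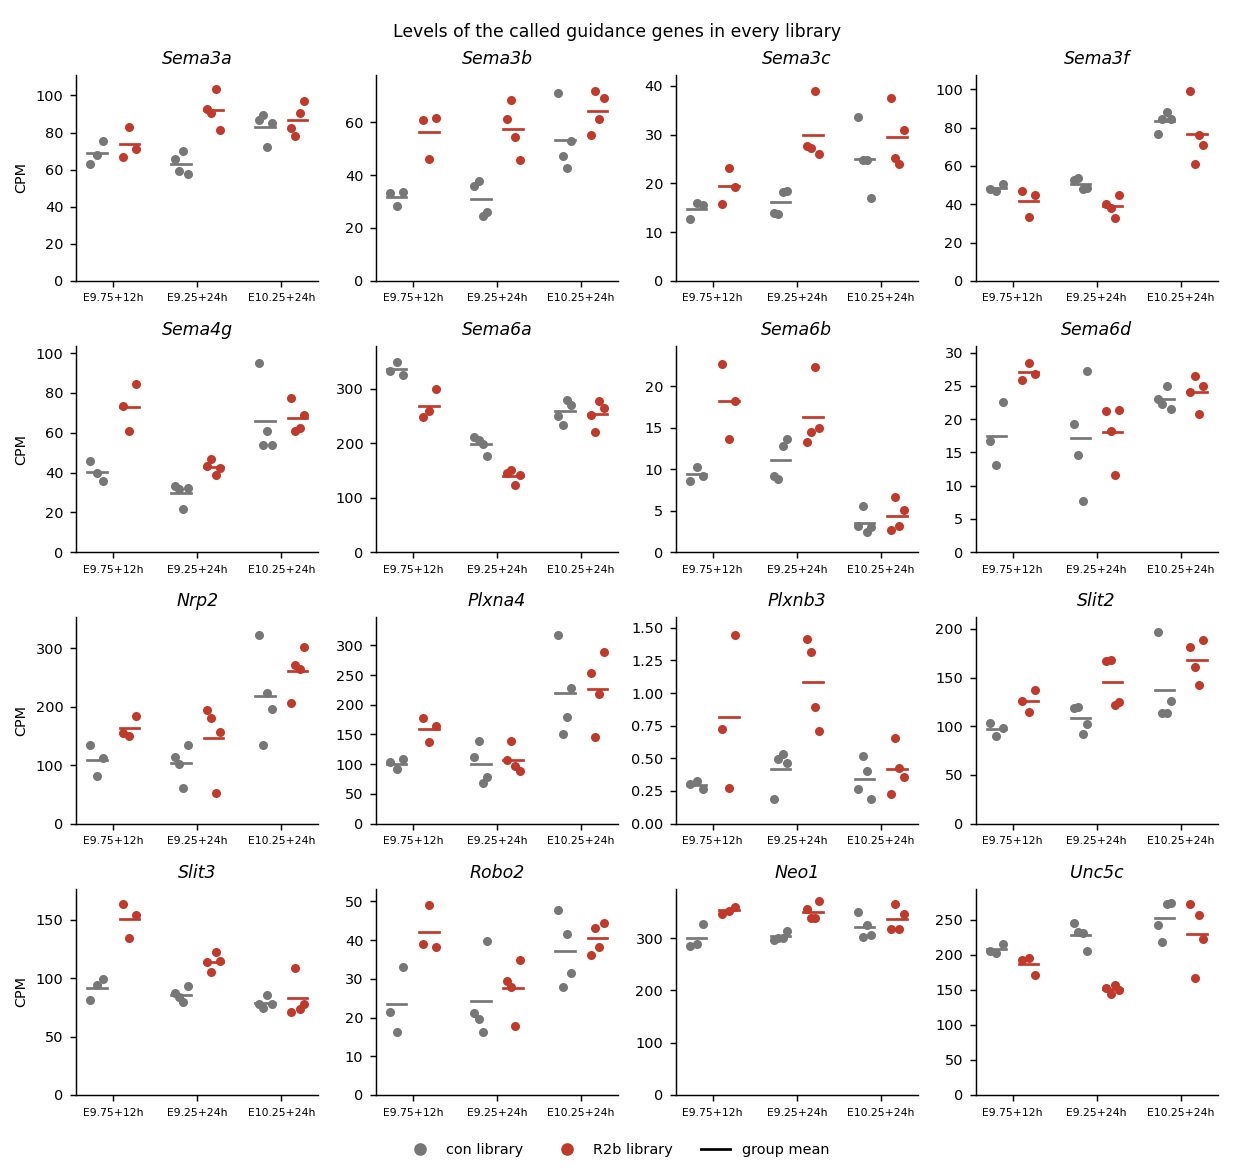
CPM of the 16 guidance genes called in at least 1 exposure, in every library (grey con, red R2b, as labelled at E10.25+24h; bars are group means) and in all 3 exposures. The R2b points lie wholly above con for Sema3b, Sema4g and Slit3 and wholly below for Sema6a in the first 2 exposures, Unc5c lies wholly below con at these exposures, and the groups of all 16 overlap at E10.25+24h.

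Some markers of otic epithelium and of other cells also differed between the groups. Of 15 otic markers, 5 rose and 2 fell in the 12-hour exposure, where 20.0 percent of all genes were called. In the early 24-hour exposure 3 rose and 4 fell, against 15.6 percent of all genes. In the 12-hour exposure 6 of the 10 neuroblast and ganglion neuron markers tested rose, where 20.0 percent of all genes were called in either direction, among them Neurog1 (0.78, FDR = 0.00144, and 0.110 in the fit of all libraries), the factor that starts neuron formation in the otocyst, and Tubb3 (1.02, FDR = 0.00125), a tubulin of young neurons. Their summed level was 302 to 344 CPM in con and 456 to 514 CPM in R2b. Under the early 24-hour exposure, 0 of 10 were called, against 15.6 percent of all genes, and the sums were 218 to 474 and 232 to 251 CPM. The litter block called 1 of the 10 higher and 3 lower there, against 40.6 percent of all genes. For periotic mesenchyme 2 of 10 rose and 0 fell in the 12-hour exposure (80.5 to 246 against 181 to 301 CPM). Of all genes, 20.0 percent were called there in either direction, and the share called higher, given above, was smaller. In the early 24-hour exposure 0 of 10 were called (41.5 to 693 against 59.1 to 678 CPM). With the litter block 2 of 10 were called higher there, against 20.5 percent of all genes. Hindbrain neural tube markers summed to at most 22.5 CPM in any library, and 8 of the 12 were not analysed here. The part of these cells in the guidance genes' differences was not tested.

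Other genes of the same pathways were counted from 5 lists: other ligands of these receptors, co-receptors and modulators, and intracellular mediators of plexins, of Robo receptors and of netrin receptors. Of 102 tested, 19 rose and 4 fell in the 12-hour exposure, and 12 rose and 6 fell in the early 24-hour exposure, against 20.0 and 15.6 percent of all genes called. The co-receptors and modulators had the most calls, 8 higher and 2 lower of 21, and 5 higher and 2 lower. Plexin mediators had 4 higher of 34 in each exposure, Robo mediators 2 higher and 1 lower of 17 in each, netrin receptor mediators 2 higher and 1 lower of 19 and then 1 lower, and other ligands 3 higher of 11 and then 1 higher and 2 lower. With the litter block the totals were 10 of 102 in the 12-hour exposure and 52 of 102 in the early 24-hour exposure. That block called 11.9 and 40.6 percent of all genes. Without litter 1 the totals were 1 and 2, and the share of all genes called fell as well.

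L1cam, an adhesion molecule that joins neuropilins in semaphorin receptors, had the smallest FDR of these in the 12-hour exposure. It went from 9.48 ± 0.611 CPM in con to 24.2 ± 3.81 in R2b (SD, n = 3; log2 fold change 1.35, FDR = 0.000557). In the early 24-hour exposure it went from 10.17 ± 4.03 to 24.7 ± 1.31 CPM (n = 4; 1.28, FDR = 0.0138), with an FDR of 0.0964 without litter 1 and 0.0926 without litter 2. Srgap1, a mediator that binds the tail of Robo receptors, rose in both, by 0.45 (FDR = 0.00553) and 0.40 (FDR = 0.00984). Its calls were lost without litter 1 (0.0969 and 0.0627), without litter 3 in the 12-hour exposure (0.0527) and without litter 2 in the early 24-hour exposure (0.0748). Cables1, an adaptor protein of Robo signalling, fell in both, by 0.80 (FDR = 0.00798; 0.0561 without litter 1) and 0.61 (FDR = 0.0225) on the log2 scale, the second lost without litter 1 or 2 (0.108 and 0.0991) or either of their R2b libraries (0.0743 and 0.0737).

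The syndecan Sdc3, a heparan sulfate proteoglycan, rose in the 12-hour exposure from 182 ± 12.5 to 249.6 ± 23.5 CPM (SD, n = 3; 0.46, FDR = 0.00998). The call was lost without litter 1 (0.120), litter 3 (0.0545) or the con library of litter 2 (0.0511). Dscaml1, of the DSCAM family of adhesion molecules, rose there from 0.788 to 2.14 CPM (1.43, FDR = 0.0144), a call lost without litter 1 (0.190), litter 3 (0.0647) or the con or R2b library of litter 1 (0.0505 and 0.0844). After the early 24-hour exposure Dscaml1 had -1.01 (FDR = 0.111), and with the litter block it was called lower (FDR = 0.0137).

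Under the early 24-hour exposure the smallest FDR of the lists was that of Flrt3, a ligand of Unc5 receptors, which rose from 46.0 ± 2.07 to 75.4 ± 6.32 CPM (SD, n = 4; 0.71, FDR = 0.000768). Its own value in the 12-hour exposure was 0.36 (FDR = 0.0994). Mical3, of a family of plexin mediators that oxidise actin, rose by 0.42 (FDR = 0.00469). The adhesion molecule Cntn1 rose by 1.12 (FDR = 0.00672; 0.0765 without litter 1 and 0.0641 without litter 2) and the adaptor Nck2 by 0.29 (FDR = 0.00700; 0.0823 without litter 1). Lrig1, which restrains several growth factor receptors and whose relative Lrig3 has been linked to Ntn1 in the inner ear, fell by 0.68 (FDR = 0.00676, and 0.0753 without litter 1 and 0.0679 without litter 2). Cntn1 and Nck2 were also called higher, and Lrig1 lower, in the 12-hour exposure. With the litter block their FDRs there were 0.0341, 0.112 and 0.0829. Without litter 1 they were 0.0519, 0.3825 and 0.1135.

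The exposures that ended at the same stage were then compared. Sema3b, Sema4g and Slit3 rose and Sema6a fell in both, 4 members or 40.0% of each list of 10, and 0 members were called in opposite directions. Of all genes called, 1295 were called in both and in the same direction, 43.6% of the calls in the 12-hour exposure and 55.5% of those in the early 24-hour exposure. Of the 42 members tested in both, 31 had the same sign. The 16 called in at least 1 exposure include 15 tested in both, and all 15 had the same sign. Those 15 were picked by a call in the exposures compared. Of all genes called in both, 0 went in opposite directions, and the share with the same sign over all genes was not counted. The 2 exposures used different litters. Tested as a difference of effects in all 22 libraries, 0 of 15688 genes and no member differed between the exposures at an FDR under 0.05; 1908 genes (12.2 percent) and 6 members had an unadjusted p under 0.05. That contrast has no litter term; with the litter block 0 genes and 0 members were called, and 8 members had an unadjusted p under 0.05. Among the 6 without the block were Sema3a (difference 0.46 ± 0.14, FDR = 0.245) and Unc5c (-0.43 ± 0.16, FDR = 0.321). Without litter 2 of the 12-hour exposure, Sema3a (0.57, FDR = 0.0391) and Plxnb1 (-0.54, FDR = 0.0155) passed. The share of all genes called in that fit is not given here.

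In the late 24-hour exposure no member's groups were apart, where 0.914 percent of all genes tested were; in the 12-hour exposure the counts were 15 above and 7 below of 43 members, and 38.9 percent of genes, and in the early 24-hour exposure 9 above and 3 below of 44, and 22.4 percent. The members of the earlier calls can be followed litter by litter. The pools labelled con held Sema3b at 71.0, 47.0, 42.7 and 52.9 CPM, and the pools labelled R2b held it at 55.1, 71.9, 61.1 and 69.2 CPM, so that litters 2, 3 and 4 had the earlier direction and litter 1 did not. Sema4g was at 95.0, 54.0, 60.7 and 53.6 CPM against 77.3, 61.0, 62.6 and 69.0 CPM, with the same split. Slit3 was at 77.8, 74.2, 86.1 and 77.8 CPM against 71.5, 109, 73.5 and 77.6 CPM, higher in the library labelled R2b in litter 2 only. Sema6a was at 251, 234, 279 and 271 CPM against 253, 220.1, 277 and 264 CPM and differed little in any litter. Unc5c was at 242, 219, 273 and 274 CPM against 273, 167, 256 and 222 CPM.

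Counted over the 16 members called earlier, the sign of the labelled R2b minus con difference was the earlier one for 2, 14, 11 and 15 of them in litters 1 to 4. The medians of these log2 differences, taken in the earlier direction, were -0.16, 0.26, 0.07 and 0.33. Litter 1 is the litter whose transgene reads ran against its labels. Without it, edgeR called 0 members and 0 genes, and 8 members and 2430 genes (16.0 percent) had an unadjusted p under 0.05: Sema3b, Sema4b, Sema4g, Slit2 and Nrp2 higher, and Sema3f, Sema4a and Sema7a lower, in the libraries labelled R2b. With the litter block as well, Sema3b (0.51 ± 0.06, FDR = 0.0201) and Slit2 (0.47 ± 0.06, FDR = 0.0221) were called, 2 of 44, against 4.04 percent of all genes (2.79 higher, 1.25 lower).

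**Figure D4:**
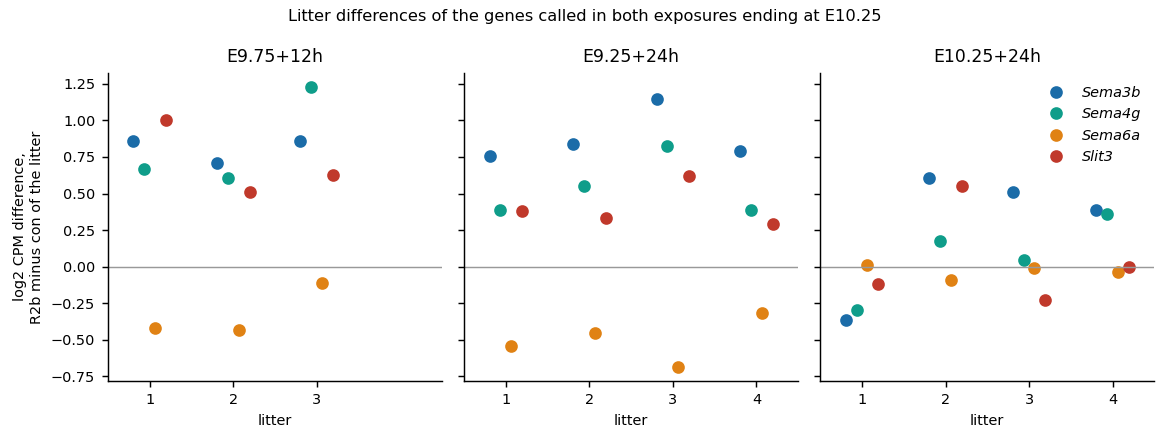
Difference in log2 CPM between the R2b and the con pool of each litter (as labelled at E10.25+24h) for the 4 guidance genes called in both exposures that ended at E10.25; each point is 1 gene in 1 litter. The 7 litters of the first 2 exposures have Sema3b, Sema4g and Slit3 above 0 and Sema6a below it, and in litter 1 at E10.25+24h all 4 genes lie on the other side.

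The difference of effects between the late 24-hour exposure and the early 24-hour exposure was also tested. At an FDR under 0.05 it was called for 0 members and 0 of 15688 genes, and at an unadjusted p under 0.05 for 11 members and 1344 genes (8.57 percent). With the litter block those member counts were 0 and 10. The smallest p among members was that of Sema6a (difference 0.47 ± 0.11, FDR = 0.182), then Sema3a (-0.48 ± 0.13, FDR = 0.247) and Unc5c (0.46 ± 0.15, FDR = 0.341). DESeq2 called Sema6a (0.49, FDR = 0.0191), and leaving out litter 2 of the late 24-hour exposure called Unc5c (0.53, FDR = 0.0362). The shares of all genes called in those fits are not given here. Both comparisons of effects use the libraries of the early 24-hour exposure, so they are not independent of each other.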

How the data were processed

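Poly(A) RNA of pooled otocyst epithelia was sequenced from stranded libraries, per the labels. The deposited table holds whole-number read counts per gene from the authors, not normalized, with alignment by Novoalign 2.08.03 and build mm10 per the submitters' processing notes; the counting tool, its strand setting, the annotation and any filter are not given in the sources used here. The lowest row total was 100 counts. Columns were joined to samples by the library numbers in titles: 22 of 24 samples had a column, and 2 columns that name no sample were not used, which leaves 3 of the 4 litters in the 12-hour exposure. Symbols and exon lengths came from GENCODE M21 (GRCm38), which named 15522 of 15736 genes; 214 stayed unnamed.

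Each exposure was tested alone in edgeR 4.0.16 (R 4.3.3) with filterByExpr, TMM, glmQLFit and glmQLFTest on 2 group means, two-sided, with Benjamini-Hochberg adjustment over all genes; differences between exposures were contrasts of 6 group means. Standard errors came from the F statistic. CPM used TMM factors, and log2 litter differences a pseudocount of 0.5 CPM. The code was tested on simulated data. Per the labels both pools of a litter came from the same pregnant female, so litters pair the samples. Same-litter correlations of deviations were -0.29 to -0.15 in the 12-hour exposure, 0.47 to 0.82 in the early 24-hour exposure and -0.16 to 0.39 in the late 24-hour exposure. Between con and R2b pools of different litters they were -0.11 to 0.32, -0.59 to 0.26 and -0.36 to 0.34. In the 12-hour exposure the pairing thus rests on the labels alone, and its litter counts and block results depend on it. No pair of the 30 replicate library pairs was identical (chi-square per degree of freedom 5.65 to 46.0). Counting error is not the main limit at 18.7 to 28.2 M counts, and the labels describe no molecular identifiers. Alternatives were median-of-ratios scaling, no filter, the litter block, a minimum mean CPM of 1, robust dispersion, one fit of all libraries, DESeq2 1.42.0, and each library or litter left out. Named by rule are members called in an exposure, those that lead a family by level, and the 5 pathway genes of smallest FDR per exposure; other members named were chosen after their values were seen. The members and lists were chosen with earlier results of these data known. The results of 1 list of cell type markers are not reported here.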

Additional observations from a re-analysis of the deposited data

Results flagged for a closer look

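In 5 of 64 groups of 4 libraries, looked at for the called members in the exposures with 4 litters, 1 library stood apart from the other 3, by a Dixon test at the 95% level; chance flags about 1 in 20 groups. Sema3c was at 39.0 CPM in R2b litter 3 in the early 24-hour exposure, where the other R2b libraries were at 26.1 to 27.7 CPM. Sema4g was at 21.6 CPM in con litter 3 in the early 24-hour exposure, below the others at 31.8 to 33.2 CPM. In the late 24-hour exposure the library labelled con of litter 1, which holds transgene reads, was high for Sema4g (95.0 CPM, others 53.6 to 60.7) and for Slit2 (197 CPM, others 113 to 126). Slit3 was at 109 CPM in the library labelled R2b of litter 2 in the late 24-hour exposure, with the others at 71.5 to 77.6 CPM.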

How the results depend on the processing

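The number of members called depended most on which litters entered and on the litter block. Under the replicate block, 22 members were called in the early 24-hour exposure and DESeq2 called 16, against 10. Of all genes, 40.6 percent were called there under the block and 21.1 percent by DESeq2, against 15.6 percent. The pathway lists had 10 in the 12-hour exposure (23 without the block) and 52 in the early 24-hour exposure (18 without). In the 12-hour exposure the block called 11.9 percent of all genes, against 20.0 percent without it. With 1 litter or library left out, with or without the block, members called ranged from 1 to 20 in the 12-hour exposure, from 1 to 26 in the early 24-hour exposure and from 0 to 2 in the late 24-hour exposure, and pathway genes from 1 to 39, 2 to 52 and 0 to 6. The low ends in the first 2 exposures came without litter 1, and the high end in the 12-hour exposure without the R2b library of litter 2. Without litter 1 the share of all genes called was lower as well, as given with the results. The shares of all genes called at the high ends are not given here, so those counts are not read as particular to guidance genes. Differences of effects with 1 litter left out ranged from 0 to 2 members between the first 2 exposures and from 0 to 1 between the late 24-hour exposure and the early 24-hour exposure, where DESeq2 called 1. For these fits too the shares of all genes called are not given here. The causes were not tested. No call of a member changed direction under any alternative run. Of 20 member calls, all 20 held with median-of-ratios scaling, without the filter, with robust dispersion and in DESeq2, and 17 with the replicate block; 2 held without litter 1 and 10 without litter 2. Beyond the changes given with the results, the block changed no other member call. Low counts limit Plxnb3, Unc5a and Robo4, each of which was left untested in at least 1 exposure.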
